A study of Danio rerio with 6 samples.

Results

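Collagens and the proteins that modify, fold, trim and cross-link them were examined in tails of zebrafish (Danio rerio) embryos with and without a beating heart. The members were taken by name from the deposited gene table: every gene called collagen with a chain number (col and a number), lox and its relatives, plod1 to plod3, p4ha1 to p4ha3, serpinh1, pcolce, leprel and crtap. This gave 85 of 25745 genes. They comprised 55 collagen genes, 27 genes of modifying enzymes and chaperones, and 3 genes that share only the letters of the name. The last group was col4a3bpa, which encodes a ceramide transfer protein, and loxhd1a and loxhd1b, which encode proteins with lipoxygenase-like domains. A mean of at least 1 normalised count in either genotype, the filter used for testing, was reached by 84 members. The exception was loxl5a, with a single read in WT replicate 2 and none elsewhere.

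RNA came from tails of strain AB at 28 hours after fertilisation, in 3 libraries of wild-type embryos (WT) and 3 of sih mutants. sih (silent heart) is a mutation of tnnt2a, which encodes cardiac troponin T. Mutant hearts never contract, and the tails develop without blood flow. The comparison addresses which transcripts of the tail differ in an embryo that has never had a heartbeat. The labels number the libraries 1 to 3 in each genotype and do not say how many embryos went into a library or whether libraries came from separate clutches.

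Collagens are trimers of chains that wind into a triple helix. Fibrillar types form banded fibres, type IV and the multiplexins (types XV and XVIII) belong to basement membranes, type VI forms beaded filaments, types VIII and X form networks, and FACIT collagens decorate fibrils. In the endoplasmic reticulum prolyl hydroxylases and lysyl hydroxylases modify the chains and the chaperone Hsp47, the product of serpinh1, binds the helix. Outside the cell procollagen peptides are cut off and lysyl oxidases cross-link the fibres. In the tail of a zebrafish embryo the notochord sheath is a rich source of type II and type IX collagen, and the fin fold and skin of type I.

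The libraries held between 21240839 and 27222955 reads assigned to genes, and 1 read was worth between 0.826 and 1.43 normalised counts. Libraries stood apart by their replicate number more than by genotype. Genotype differences are therefore given with the error of a paired fit, which blocks on that number, beside the result of the fit without it. tnnt2a, the gene mutated in sih, had 0, 9 and 4 reads in WT and 0, 0 and 3 in sih, so its level does not check the labels. Other heart markers were near the floor in both genotypes (myl7 had at most 5 reads), while marker genes of muscle, notochord, epidermis and neural tube were present in all 6 libraries.

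The members took between 2.80% and 3.68% of all assigned reads of a library. Most of these reads came from the 16 fibrillar genes, which held between 2.35% and 2.78% in the WT libraries, and between 2.19% and 2.96% in the sih libraries. The 11 FACIT genes held between 0.265% and 0.351%, and the 10 basement membrane genes between 0.126% and 0.228%. These shares are not corrected for transcript length, so they rank no gene against another. At the other end, 18 of the 85 members had a mean below 50 normalised counts over the 6 libraries. Lysyl oxidases contributed 4 of them.

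The steepest differences among the members ran between replicate numbers, in both genotypes alike. Of the 84 tested members, 65 (77.4%) changed with the replicate number in limma's F test with genotype in the model at an adjusted p under 0.05. Among all 22813 genes tested the share was 59.1%. In 48 of the 65 the level in replicate 1 lay above the mean of replicates 2 and 3 (57.1% of the members, against 30.8% of all genes), and in 17 it lay below (20.2%, against 28.2% of all genes). In 46 members both replicate 1 libraries lay above all 4 others, against 28% of all genes, and in 13 both lay below, against 23.4%. The replicate number accounted for a median of 87.8% of the sum of squares of log2 values in the members and 79.8% in all genes, and genotype for 5.32% and 6.12%. The heat map of the members shows this as 2 left-hand columns that share their colours across WT and sih.

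**Figure D1:**
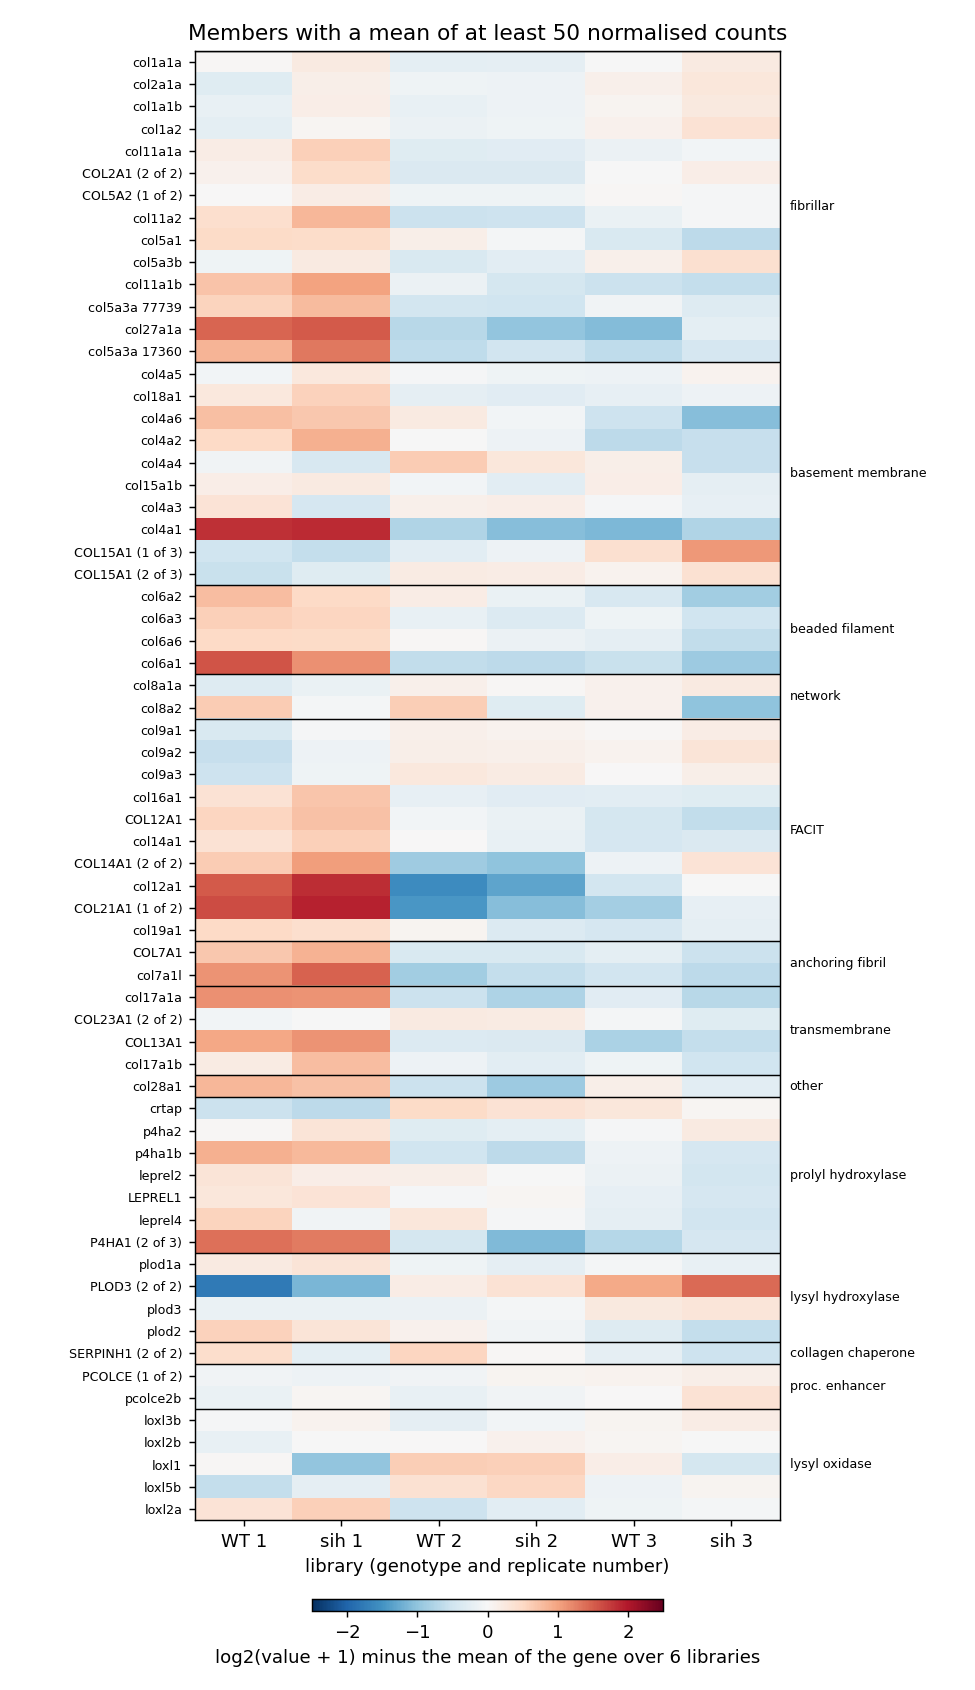
Level of each member with a mean of at least 50 normalised counts in the 6 libraries, as log2(value + 1) minus the mean of the gene (colour scale; red above, blue below the mean), ordered by role (col4a3bpa, a match by name alone, is not drawn). WT and sih libraries of the same replicate number stand side by side; where a name occurs more than once, the last digits of the identifier follow it. Most of the deep red lies in both replicate 1 libraries, as in col4a1, col12a1 and COL21A1 (1 of 2), and PLOD3 (2 of 2) runs the other way.

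Members that were high in replicate 1 included a FACIT chain, both anchoring fibril genes, a type VI chain and a transmembrane collagen. col12a1 (ENSDARG00000078322), a FACIT chain that bridges fibrils, was at 568, 65.2 and 142 normalised counts in WT replicates 1, 2 and 3 and 708, 77.8 and 193 in sih replicates 1, 2 and 3. The replicate 1 libraries were the high ones in both genotypes, and the log2 difference of replicate 1 from the mean of replicates 2 and 3 was 2.53 ± 0.14 (adjusted p = 2.07e-10 for the replicate number). col7a1l (ENSDARG00000069692), which by its name is related to the type VII collagen of the anchoring fibrils below the epidermis, was at 2253, 566 and 745 in WT and 2849.7, 682 and 653 in sih, a replicate difference of 1.94 ± 0.11 (adjusted p = 5.11e-10). COL7A1 itself was at 2102, 1016 and 1117 in WT and 2408, 1019.9 and 918 in sih, likewise with both replicate 1 libraries on top. col6a1 (ENSDARG00000074908), a chain of type VI collagen, was at 1254, 273 and 285 in WT and 930.2, 268 and 223 in sih, with a replicate difference of 2.04 ± 0.12 (adjusted p = 9.33e-10). col17a1a, a transmembrane collagen of the hemidesmosomes in skin, was at 811, 253 and 301 in WT and 803, 214 and 226 in sih. Here too both libraries of replicate 1 exceeded all others.

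Among members with a mean of at least 50, the opposite pattern was steepest in PLOD3 (2 of 2) (ENSDARG00000060715), a lysyl hydroxylase gene. It was at 151, 590.3 and 1001 normalised counts in WT replicates 1, 2 and 3 and 236, 669.7 and 1388 in sih replicates 1, 2 and 3. Its level was lowest in replicate 1 and highest in replicate 3 in both genotypes (replicate 1 difference -2.18 ± 0.12, adjusted p = 1.38e-10). Its namesake plod3 was at 583, 590.3 and 781 in WT and 583, 634 and 817 in sih with a replicate 1 difference of -0.26 ± 0.10. The 3 chains of type IX collagen, a FACIT of the notochord sheath and cartilage, were also lowest in replicate 1 of each genotype. col9a1 was at 22516, 31928 and 29963 in WT and 28659, 31318 and 33549 in sih. col9a2 was at 13435, 22209 and 21352 in WT and 18173, 21819 and 25088 in sih. col9a3 was at 9003, 15519 and 13089.8 in WT and 12075, 14832 and 14295 in sih. loxl3a, a lysyl oxidase gene, had 0 reads in both replicate 1 libraries and 26.4, 17.7, 23.2 and 20.1 normalised counts in WT replicates 2 and 3 and sih replicates 2 and 3. Without replicate 1 the replicate number called 34 members, against 29% of all genes, and 40.5% of the members.

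Genomic span, which includes introns and is no measure of transcript length, was found by symbol for 70 of the 84 tested members (83.3%) in RefSeq (assembly GRCz12tu). The 35 members with the longer span had a median replicate 1 difference of 0.73, with 30 of them above 0. In the 35 with the shorter span the median was 0.19, with 20 above 0. The same split was not made over all genes, so these counts have no background share and cannot be called particular to the members. The labels do not say what the replicate number marks, and the part of span in these differences was not tested.

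Few members were called between genotypes, and most of those were lower in sih. In the paired limma fit 6 of 84 tested members were called, against 4.84% of all genes tested. In detail, 5 of 84 tested members fell in sih (5.95%, against 2.07% of all genes tested) and 1 rose (1.19%, against 2.77%). Of the 55 collagen genes 3 fell (5.45%) and 0 rose, and of 26 tested enzymes and chaperones 2 fell and 1 rose. Those that fell were the network collagen col8a2, the chaperone SERPINH1 (2 of 2), the basement membrane collagen col4a4, the beaded filament collagen col6a2 and the lysyl oxidase loxl1, and the one that rose was PLOD3 (2 of 2). In the limma fit without the block no member was called, nor was any of all 22813 genes (background 0%, smallest adjusted p = 0.0808). At an unadjusted p under 0.05 that fit held 2 members, col8a2 and lox, and 235 of all genes. edgeR and DESeq2 without the block called 0 members. Of all genes, edgeR without the block called 0 and DESeq2 48 (46 higher, 0.202%, and 2 lower, 0.00877%). The median log2 difference of the members, sih minus WT, was 0.03 with 0.15, -0.04 and -0.04 in pairs 1, 2 and 3, and that of all genes lay within 0.01 of 0.

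Counting directions alone, 21 members were lower in sih in every pair (25%, against 18.2% of all genes) and 18 were higher in every pair (21.4%, against 20.2%). The sih and WT libraries did not overlap in 2 members, col8a2 and lox, both lower in sih (2.38%, against 2.12% of all genes), and in 0 members in the higher direction (background 2.1%). With scaling by library totals in the paired fit 17 members were called lower and 0 higher, against 8.91% and 0.789% of all genes. That scaling moved the median of all genes to -0.18 on the log2 scale and the members' median to -0.15.

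Erythroid markers and those of neutrophils and macrophages moved with the genotype, while lists of other cell types moved less or not at all. The 13 entries of an erythroid marker list took between 0.149% and 0.181% of reads in WT and between 0.648% and 0.848% in sih, and all 13 rose in the paired fit. The 11 entries of a neutrophil and macrophage list took between 0.00539% and 0.00918% in WT and between 0.00242% and 0.00320% in sih, and 4 of them fell. The summed share of 10 notochord markers was between 0.197% and 0.262% in WT and between 0.174% and 0.232% in sih, with 1 lower and 0 higher. That of 16 fibroblast and sclerotome markers was between 0.0256% and 0.0366% in WT and between 0.0209% and 0.0338% in sih, with none called in the paired fit, and 13 epidermal markers (3 higher, 1 lower) took between 3.06% and 4.30% in WT and between 3.35% and 4.54% in sih. Of 13 endothelial and 13 neural entries 0 were called, and of 14 skeletal muscle entries 1 rose. The muscle list took 9.86%, 8.83% and 11.6% of reads in WT replicates 1, 2 and 3. In sih it took 10.0%, 9.56% and 12.9%, more in every pair. Of its entries 8 were higher in sih in every pair (20.2% of all genes were) and 0 were lower (18.2% of all genes). Over all genes tested 2.77% rose and 2.07% fell in the paired fit. Shares of reads scale by library totals, unlike the normalised counts of the paired fit. Summed normalised counts of the notochord list were 54581, 46817 and 52364 in WT replicates 1, 2 and 3. In sih they were 55989, 47538 and 53454, higher in every pair although the shares were lower. The median log2 difference was 0.06 in the notochord list and 0.15 in the fibroblast and sclerotome list. No entry of these lists was at 0 reads in all libraries. In bulk tails fewer cells of a type and less RNA per cell cannot be told apart, and the part of these shifts in the differences of collagen genes was not tested.

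**Figure D2:**
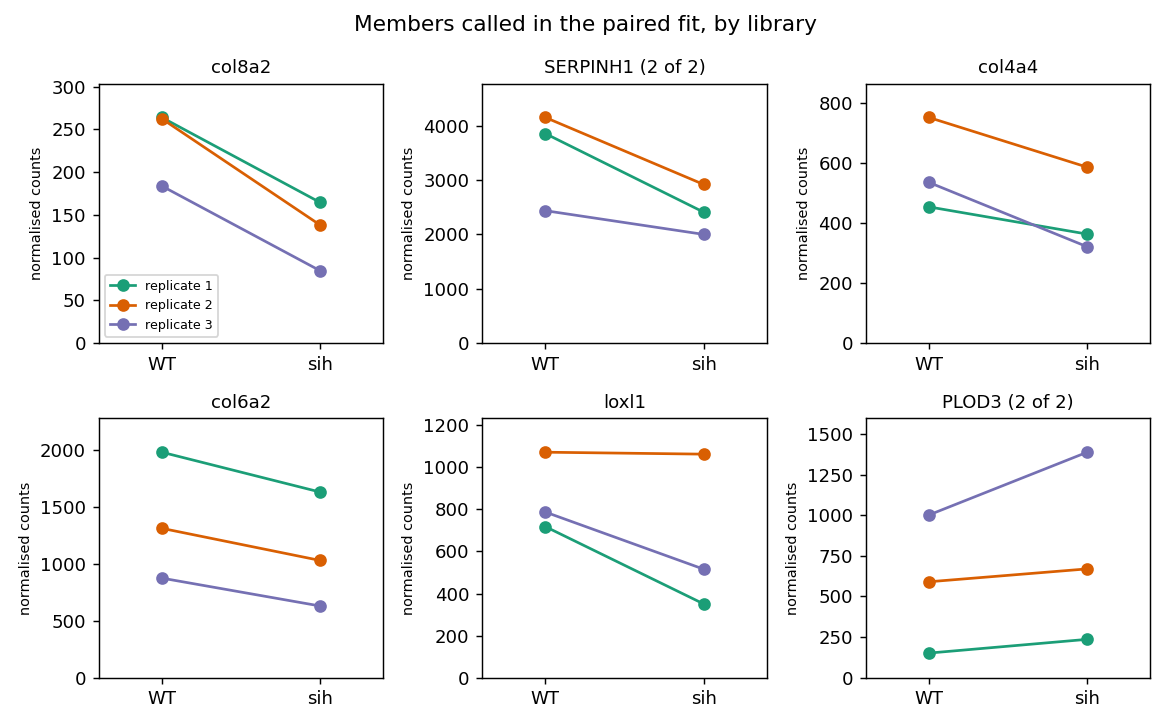
Normalised counts (linear axes from 0) of the 6 members called in the paired fit, in WT and sih; each point is a library and each line joins the libraries of 1 replicate number. The lines fall in col8a2, SERPINH1 (2 of 2), col4a4 and col6a2 in all 3 pairs, loxl1 is nearly level in pair 2, and PLOD3 (2 of 2) rises in all 3 pairs while its pairs lie far apart.

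No fibrillar collagen, the chains of the banded fibres, was called between genotypes in the paired limma fit. Of the 16 tested genes 8 were higher in sih in every pair (20.2% of all genes were) and 1 was lower (18.2% of all genes), and their median log2 difference was 0.17, with 0.32 and 0.14 in pairs 1 and 3 and within 0.01 of 0 in pair 2. col1a1a (ENSDARG00000012405), a type I chain, was at 215281, 178546 and 210185 normalised counts in WT replicates 1, 2 and 3 and 247081, 181713 and 245783 in sih replicates 1, 2 and 3, and the groups overlapped (0.15 ± 0.09, adjusted p = 0.408). Its partner col1a1b was at 82883, 83450.0 and 99269 in WT and 106371, 86975 and 112140.5 in sih (0.20 ± 0.09, adjusted p = 0.219), and col1a2, the third type I chain, at 78105, 83664 and 100499 in WT and 95709, 86071 and 119109.8 in sih. col2a1a (ENSDARG00000069093), the type II chain of the notochord sheath, was at 90811, 104087 and 122943 in WT and 124243, 103276 and 137743 in sih (0.20 ± 0.09, adjusted p = 0.256). Each of these genes was higher in sih in pairs 1 and 3 and close to level in pair 2. With the block, edgeR called col2a1a higher (adjusted p = 0.0443). With scaling by library totals the median of the fibrillar genes was -0.02 and the difference of col1a1a turned to -0.0343. The chains of type I collagen are built into one trimer. The read count of col1a2 was at 0.363, 0.469 and 0.478 of col1a1a in WT and at 0.387, 0.474 and 0.485 in sih, and the lowest value of each genotype belonged to replicate 1.

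Among the minor fibrillar chains, those of types V and XI join type I and type II fibrils. The type V gene col5a3b was at 8457, 6955 and 9923 in WT and 10688, 7536 and 12038 in sih, higher in sih in every pair. It did not pass in the paired limma fit (adjusted p = 0.0742). It was called higher with the block in edgeR, in DESeq2 and with a filter of 1 CPM in 3 libraries (adjusted p = 0.0410, 0.0460 and 0.0491), and without pair 2 (adjusted p = 0.0420). col5a1 was lower in sih in every pair, at 12773, 10183 and 7031 in WT and 12692, 8878 and 5858 in sih, and also did not pass there (adjusted p = 0.286), but was called lower with scaling by library totals (adjusted p = 0.00987). col11a1a was at 35061, 24895 and 27810.0 in WT and 46459.9, 25114 and 29277 in sih, with the sih library of replicate 1 the highest. col27a1a was at 387, 85.9 and 65.8 in WT and 408, 70.4 and 117 in sih, high in both replicate 1 libraries. The table lists col5a3a under 2 identifiers, and how reads of such similar copies were divided between them is uncertain.

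Among 10 basement membrane genes 1 fell in the paired fit (2.07% of all genes did) and 0 rose (2.77% of all genes), too few to read as a result about the group. col4a4 (ENSDARG00000002831), a type IV chain, was at 454, 752 and 536 normalised counts in WT replicates 1, 2 and 3 and 363, 586 and 321 in sih replicates 1, 2 and 3. It was lower in sih in every pair, by log2 ratios of -0.32, -0.36 and -0.74, while the ranges of the genotypes overlapped, with pair 2 above the others. Its change was -0.47 ± 0.11 (adjusted p = 0.0205 in the paired limma fit), and it was not called without pair 3 (adjusted p = 0.243). col4a3 (ENSDARG00000003395), the neighbouring gene, was at 270.5, 234 and 209 in WT and 160.0, 238 and 185 in sih, lower in sih in pairs 1 and 3 (-0.30 ± 0.15, adjusted p = 0.295). col18a1, a multiplexin chain, was at 18788, 13418 and 13539.9 in WT and 23139, 12903 and 14248 in sih, with both replicate 1 libraries on top and no call between genotypes. The related type XV gene col15a1b was at 399.8, 339 and 397 in WT and 414, 295 and 304 in sih.

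The 6 type IV genes lie as 3 pairs of adjacent protein-coding genes in RefSeq (assembly GRCz12tu), and such pairs are known in mammals to be transcribed head to head from a shared promoter region. Partners did not keep a fixed ratio across these libraries. col4a1 (ENSDARG00000055009) was at 349, 57.8 and 44.2 in WT and 358, 46.3 and 57.3 in sih, so that replicate 1 stood far above the rest (replicate 1 difference 2.77 ± 0.19). col4a2 (ENSDARG00000020781) was at 1385, 976 and 628 in WT and 1823, 898 and 662 in sih, a replicate 1 difference of 1.03 ± 0.11. The read ratio of col4a1 to col4a2 was 0.252, 0.0592 and 0.0704 in WT and 0.197, 0.0516 and 0.0866 in sih. It was high in replicate 1 of both genotypes. col4a5 (ENSDARG00000052063) was at 18740.5, 19287 and 18017 in WT and 23562, 18210.3 and 21077 in sih and was called for neither genotype nor replicate number (adjusted p = 0.332 and 0.355). col4a6 (ENSDARG00000052061) was at 5276, 3664 and 2213 in WT and 5045, 3003 and 1508 in sih and was highest in replicate 1 and lowest in replicate 3 of each genotype, with a read ratio to col4a5 of 0.282, 0.190 and 0.123 in WT and 0.214, 0.165 and 0.0716 in sih. col4a6 was lower in sih in every pair and did not pass in the paired limma fit (-0.30 ± 0.09, adjusted p = 0.0596). It was called lower with the block in edgeR (adjusted p = 0.0162), with the CPM filter (adjusted p = 0.0457), with scaling by library totals (adjusted p = 0.00477) and without pair 1 (adjusted p = 0.000455). The genotype differences of col4a1 and col4a2 were 0.03 ± 0.18 (adjusted p = 0.957) and 0.12 ± 0.10 (adjusted p = 0.590), and that of col4a5 was 0.16 ± 0.08. With scaling by library totals these 3 differences fell below 0 (-0.152, -0.0668 and -0.0263).

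**Figure D3:**
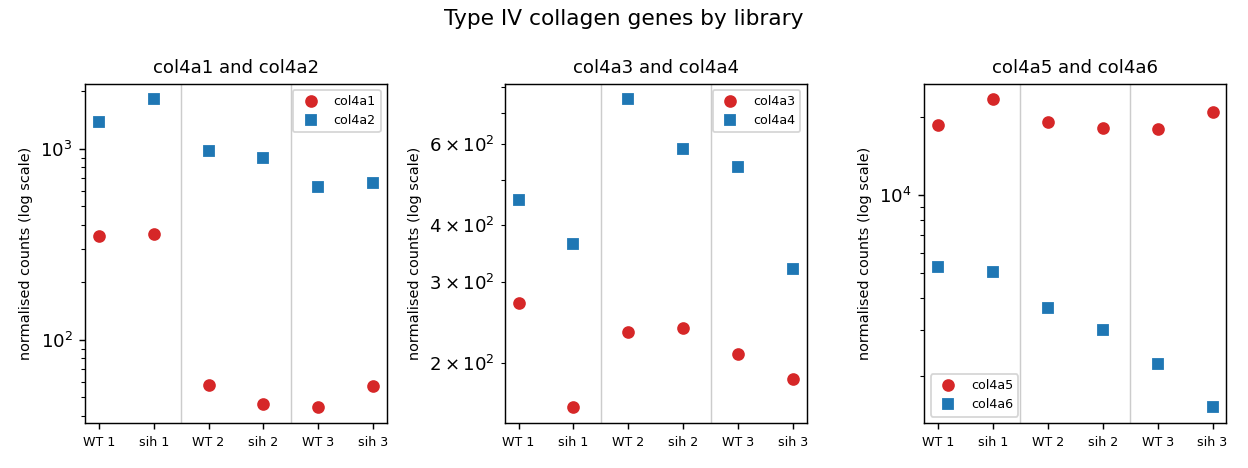
Normalised counts of the 6 type IV collagen genes (log axes, different in each panel) in the 6 libraries, 1 panel for each pair of adjacent genes; grey lines separate the replicate numbers. col4a1 drops between replicate 1 and the others by more than its partner col4a2, and col4a5 lies between 18017 and 23562 while col4a6 is highest in both replicate 1 libraries.

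Type VI collagen, which forms beaded filaments close to cells, was lower in sih at 4 of its 5 entries in every pair (18.2% of all genes were), and 1 entry passed in the paired limma fit. With scaling by library totals all 4 were called lower, against 8.91% of all genes. That scaling also moved the median log2 difference of all genes to -0.18. col6a2 (ENSDARG00000061436) was at 1983, 1314 and 876 normalised counts in WT replicates 1, 2 and 3 and 1632, 1031 and 630.3 in sih replicates 1, 2 and 3. The genotypes overlapped, both with the highest level in replicate 1 and the lowest in replicate 3, and within pairs sih was lower by log2 ratios of -0.28, -0.35 and -0.47. Its change was -0.37 ± 0.09 (adjusted p = 0.0217 in the paired limma fit), and without pair 3 it was not called (adjusted p = 0.191). col6a1, whose values are given above, had log2 ratios of -0.43, -0.03 and -0.35 and did not pass (adjusted p = 0.202). col6a3 (ENSDARG00000077139) was at 1607, 932 and 984 in WT and 1547, 840.2 and 756 in sih (adjusted p = 0.271), and col6a6 at 1081, 778 and 655 in WT and 1061, 687 and 499 in sih (adjusted p = 0.294). Both were lower in sih in every pair, with the smallest gap in pair 1. A second entry named col6a3 (ENSDARG00000095915) was at 80.7, 5.78 and 7.86 in WT and 96.4, 11.1 and 12.9 in sih, the single entry of type VI that was higher in sih in every pair (adjusted p = 0.345), and it had few reads outside replicate 1.

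col8a2 (ENSDARG00000060893), a network collagen of type VIII, had the smallest adjusted p between genotypes of all members in the paired fit. It was at 264, 263 and 184 normalised counts in WT replicates 1, 2 and 3 and 164, 138 and 84.5 in sih replicates 1, 2 and 3. All 3 sih libraries lay below all 3 WT libraries, with means of 237 ± 45.9 in WT and 129 ± 40.7 in sih (SD, n = 3). The fold of sih over WT from the mean log2(value + 1) difference was 0.534. The log2 ratios were -0.68, -0.92 and -1.11 in pairs 1, 2 and 3, and the change of -0.90 ± 0.15 passed in the paired limma fit (adjusted p = 0.00125), also without any 1 of the pairs (adjusted p = 9.04e-06, 0.000526 and 0.00102 without pairs 1, 2 and 3). With a pair left out, few libraries remain to estimate the error of a gene, and limma leans still more on the spread of other genes. The smaller values are therefore no stronger evidence than that of all libraries. Genotype accounted for 64.9% of its sum of squares of log2 values. The other type VIII chains were not called. col8a1a (ENSDARG00000077403), a gene of the notochord, was at 7773, 10539.5 and 10379 in WT and 8672, 9898 and 11349 in sih (adjusted p = 0.709), and col8a1b was at 41.3, 6.61 and 18.7 in WT and 26.1, 7.41 and 14.3 in sih (adjusted p = 0.714). The differences between these chains were not tested against each other.

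No gene of the 11 FACIT, 2 anchoring fibril, 6 transmembrane and 1 type XXVIII entries was called between genotypes in the paired fit. Their median log2 differences were 0.16, 0.06, 0.06 and -0.29. In the FACIT group col12a1 and COL21A1 (1 of 2), 2 of 11, were higher in sih in every pair (20.2% of all genes were). COL21A1 (1 of 2) was at 246, 28.1 and 43.2 in WT and 298, 37.1 and 67.3 in sih (adjusted p = 0.223). A second type XII entry with more reads, COL12A1 (ENSDARG00000019601), was at 3620, 2370 and 1821 in WT and 4117, 2226 and 1629 in sih. It was lower in sih in pairs 2 and 3 (adjusted p = 0.929). The type IX chains listed above were higher in sih in pairs 1 and 3 and level in pair 2, with an adjusted p of 0.173 for col9a2. Without pair 2 col9a2 and COL14A1 (2 of 2) were called higher (adjusted p = 0.0244 and 0.00815), and with scaling by library totals the transmembrane collagen col17a1a was called lower (adjusted p = 0.0443). Among the transmembrane collagens COL13A1 was at 226, 90.8 and 65.8 in WT and 251, 89.9 and 75.9 in sih and COL23A1 (2 of 2) at 208, 258 and 213 in WT and 218, 252 and 178 in sih. col28a1, the type XXVIII gene, was at 199, 76.8 and 124 in WT and 186, 59.3 and 93.1 in sih, lower in sih in every pair and not called (adjusted p = 0.372).

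In the plot of both differences, members spread more widely along the replicate axis than along the genotype axis.

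**Figure D4:**
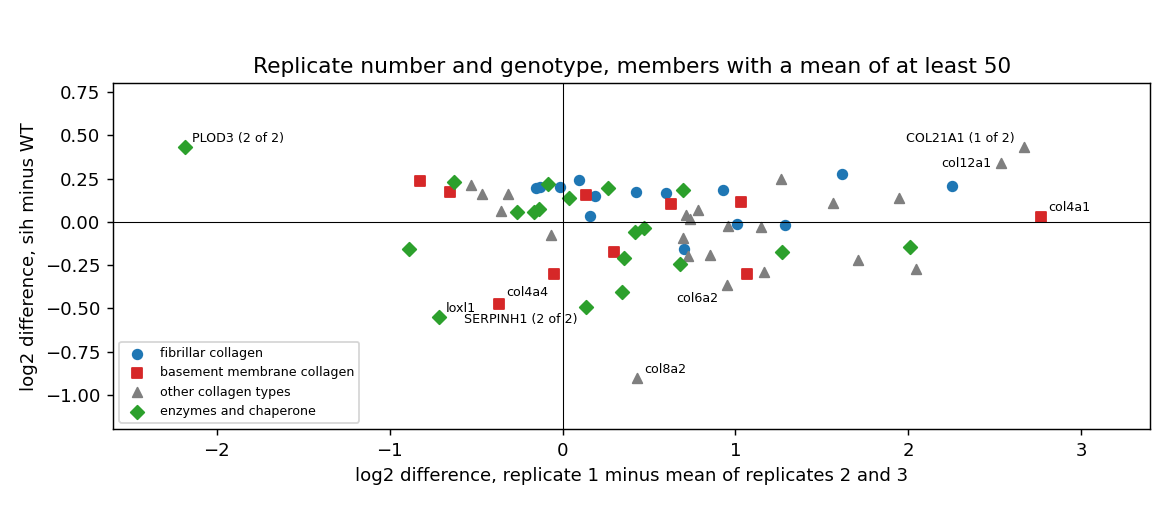
Log2 difference of sih minus WT (vertical axis) against the log2 difference of replicate 1 minus the mean of replicates 2 and 3 (horizontal axis). Members with a mean of at least 50 normalised counts are drawn, except col4a3bpa, a match by name alone. Both differences are on the log2(value + 1) scale. Each point is a gene, with colour and shape for its role. Points spread from -2.18 to 2.77 along the horizontal axis and from -0.90 to 0.43 along the vertical one, with col8a2 lowest.

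Among the genes whose products handle procollagen inside the cell, the transcript of 1 chaperone gene was lower in sih. It is the only serpinh1 entry among the members, although its name numbers it 2 of 2. SERPINH1 (2 of 2) (ENSDARG00000075954), an Hsp47 gene that holds the triple helix in the endoplasmic reticulum, was at 3852, 4149 and 2433 normalised counts in WT replicates 1, 2 and 3 and 2406, 2916 and 1997 in sih replicates 1, 2 and 3. Replicate 3 was the lowest of each genotype and the ranges overlapped, but sih was lower in every pair, by log2 ratios of -0.68, -0.51 and -0.29. The change was -0.49 ± 0.09, or 0.712 times the WT level (adjusted p = 0.00252 in the paired limma fit), and the call held without any 1 of the pairs (adjusted p = 0.000861, 0.000849 and 8.29e-05 without pairs 1, 2 and 3). The limit given for col8a2 on fits without a pair applies here too. PLOD3 (2 of 2), the lysyl hydroxylase described above, rose in every pair, by log2 ratios of 0.64, 0.18 and 0.47 (0.43 ± 0.11, adjusted p = 0.0301). Its call was lost with scaling by library totals, without pair 1 (adjusted p = 0.0623) and without pair 3 (adjusted p = 0.167). The other lysyl hydroxylases did not pass in that fit. plod1a was at 4116, 3265 and 3411 in WT and 4393, 2997 and 3084 in sih, with an adjusted p = 0.756. plod2, which hydroxylates the telopeptides that form cross-links, was at 883, 636 and 469.8 in WT and 737, 552 and 391 in sih, lower in sih in every pair (adjusted p = 0.184, and 0.0153 with scaling by library totals).

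None of 9 prolyl hydroxylase genes and relatives was called between genotypes in the paired limma fit, and all 9 changed with the replicate number (59.1% of all genes did). With scaling by library totals 4 of the 9 were called lower, crtap, leprel2, leprel4 and p4ha1b (adjusted p = 0.0119, 0.0218, 0.0250 and 0.0281), against 8.91% of all genes. Under that scaling the median log2 difference of all genes was -0.18. p4ha2, a catalytic subunit of prolyl 4-hydroxylase, was at 1569.7, 1251 and 1495 in WT and 1906, 1292 and 1801 in sih, higher in sih in every pair (adjusted p = 0.219). Another catalytic subunit gene, p4ha1b, was at 1425, 543 and 708 in WT and 1348, 486 and 579 in sih, lower in sih in every pair (adjusted p = 0.340). crtap, a partner of the prolyl 3-hydroxylase complex, was at 2216, 4495 and 3909.5 in WT and 2049, 4126 and 3315 in sih, lowest in replicate 1 of both genotypes and lower in sih in every pair (adjusted p = 0.284). leprel4, of the same family as crtap, was at 238, 198 and 139 in WT and 152, 159 and 116 in sih, with log2 ratios of -0.65, -0.31 and -0.25 and an adjusted p = 0.132.

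Outside the cell, 1 of 8 tested lysyl oxidases fell (2.07% of all genes did), too few to read as a result about the group. loxl1 (ENSDARG00000054451) was at 718, 1072 and 787 normalised counts in WT replicates 1, 2 and 3 and 351, 1062 and 516 in sih replicates 1, 2 and 3. The fall lay in pairs 1 and 3, with log2 ratios of -1.03, -0.01 and -0.61, and the genotypes overlapped. Its change was -0.55 ± 0.14 (adjusted p = 0.0240 in the paired limma fit), and without pair 1 it was not called (adjusted p = 0.0874). The error and the call borrow from the spread of other genes, while its own pair ratios lie far apart. loxl3b was at 1329, 1157 and 1418 in WT and 1442, 1306 and 1544 in sih and loxl2b at 1171, 1343 and 1372 in WT and 1325, 1437 and 1322 in sih, with adjusted p = 0.408 and 0.707. Neither was called for the replicate number (adjusted p = 0.0854 and 0.410). loxl5b was at 389, 769 and 543 in WT and 504, 844 and 619 in sih, higher in sih in every pair (adjusted p = 0.220). The procollagen C-proteinase enhancers, which speed the removal of the C-propeptide, had no called gene among 4. PCOLCE (1 of 2) was at 1070.0, 1077 and 1212 in WT and 1045, 1202 and 1255 in sih and pcolce2b at 153, 152 and 173 in WT and 178, 161 and 222 in sih, with overlapping genotypes in both. pcolce2a was at 23.8, 40.5 and 39.3 in WT and 15.9, 34.3 and 47.3 in sih, lowest in replicate 1 of each genotype. Of the genes that match by name alone, col4a3bpa was at 737, 569.7 and 529 in WT and 575, 522 and 497 in sih, loxhd1b at 10.1, 4.13 and 0.983 in WT and 7.94, 7.41 and 2.87 in sih and loxhd1a at 4.58, 2.48 and 1.97 in WT and 5.67, 3.71 and 2.87 in sih, and none of them was called between genotypes in the paired limma fit (with scaling by library totals col4a3bpa was, at an adjusted p = 0.0357).

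A list of other genes of matrix assembly was set beside the members: procollagen proteinases, folding and secretion factors, matrix glycoproteins, laminins, elastic fibre genes, proteoglycans, matrix proteases, collagen receptors and regulators. Of 175 tested entries 7 fell in the paired fit (4%, against 2.07% of all genes) and 3 rose (1.71%, against 2.77%), with a median log2 difference of -0.02. Without the block 0 were called. emilin1a (ENSDARG00000024537), a glycoprotein of elastic fibres, was at 529, 679.5 and 426 normalised counts in WT replicates 1, 2 and 3 and 271, 481 and 256 in sih replicates 1, 2 and 3, lower in sih in every pair (-0.73 ± 0.12, adjusted p = 0.00105). p4hb (ENSDARG00000052589), the protein disulphide isomerase that is the second subunit of prolyl 4-hydroxylase, was at 6550.3, 8631 and 5389.6 normalised counts in WT replicates 1, 2 and 3 and 4994, 6362 and 3991 in sih replicates 1, 2 and 3. It too was lower in every pair (-0.42 ± 0.07, adjusted p = 0.00257). fkbp14, a prolyl isomerase of the endoplasmic reticulum that acts on collagens, was at 831, 1617 and 932 in WT and 687, 1189 and 683 in sih (-0.39 ± 0.09, adjusted p = 0.0202). Of the 10 tested entries for folding and modification, p4hb and fkbp14 were the called ones, and both fell (2.07% of all genes did), too few to read as a result about the group. Of the 10, 5 were lower in sih in every pair (18.2% of all genes were) and 1 was higher (20.2% of all genes).

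kera, a small proteoglycan that organises fibrils, was at 1127, 656 and 597 in WT and 829, 532 and 415 in sih (-0.42 ± 0.10, adjusted p = 0.0189). It was 1 of 3 proteoglycan genes that fell, of 20 tested (2.07% of all genes did), again a small count. Of the 20, 9 were lower in sih in every pair (18.2% of all genes were) and 0 were higher (20.2% of all genes). Of 18 laminin and basement membrane entries 10 were higher in sih in every pair (20.2% of all genes were) and 2 were lower (18.2% of all genes). Their median log2 difference was 0.18. In the paired fit 1 of the 18 rose (2.77% of all genes did) and 0 fell. That gene, lamb1a (ENSDARG00000089288), a laminin beta chain, was at 2570.1, 322 and 620.1 normalised counts in WT replicates 1, 2 and 3 and 3009.7, 469.6 and 1070.1 in sih replicates 1, 2 and 3. Each sih library lay above the WT library of its number (0.52 ± 0.10, adjusted p = 0.00695), while replicate 1 lay far above both others. A second entry of the same name, ENSDARG00000026491, was at 2592, 1215 and 1410.3 in WT and 3065, 1466 and 1443 in sih and was not called (adjusted p = 0.257). The cartilage matrix gene matn3b rose from 535, 849 and 873 in WT to 771, 952 and 1162 in sih (0.37 ± 0.10, adjusted p = 0.0368), and tgfb3, a ligand of the TGF beta family, was at 1091, 1022 and 1392 in WT and 1347, 1178 and 1904 in sih (0.32 ± 0.09, adjusted p = 0.0422). Without pair 3 the calls of kera, fkbp14, lamb1a, matn3b and tgfb3 were lost (adjusted p = 0.131, 0.130, 0.0878, 0.180 and 0.374), without pair 2 that of fkbp14 (adjusted p = 0.0744) and without pair 1 that of matn3b (adjusted p = 0.108). With the block and all libraries, scaling by library totals lost the calls of lamb1a, matn3b and tgfb3. A pseudocount of 0.1 lost those of kera, fkbp14, matn3b and tgfb3. The call of tgfb3 was also lost without the filter on low values, while emilin1a and p4hb were called in all 8 such fits. In this list, too, the replicate number was called more often, for 128 of 175 entries (73.1%, against 59.1% of all genes), 97 of them with replicate 1 above the others (55.4%, against 30.8%).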

How the data were processed

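mRNA of 6 libraries of zebrafish tails was sequenced after an Illumina preparation, per the labels' protocols. TopHat, HTSeq 0.5.3p5 and edgeR 3.0.8 and the build Zv9 are listed, per the submitters' processing notes, without saying what each was used for. No annotation, strand setting or scaling method is given in these sources. What the authors deposited is a signal, namely read counts per gene after normalisation by 1 factor per library. On checking, 100% of values in each library were whole multiples of 1 read (tolerance 1e-06), so whole reads were recovered.

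The members and gene lists were chosen with earlier results of these data known. limma 3.58.1 (R 4.3.3) with a mean-variance trend was fitted to log2(value + 1) over the 22813 genes that averaged 1 or more in WT or in sih. Tests are two-sided, with Benjamini-Hochberg adjustment over all genes and a threshold of 0.05. The fold changes understate changes of genes with few reads. Errors of log2 differences (±) are limma's moderated SE of the paired fit, or of the same model for the replicate 1 differences. The latter were computed as replicate 1 minus the mean of replicates 2 and 3. A moderated SE draws the spread of a gene towards that of other genes, also with all 6 libraries. It can be smaller than the scatter of the gene's own pair ratios would give, as in loxl1. The design fixed the fit without a block as the main one and the replicate number as the alternative. Over 13248 genes with a mean of at least 50, deviations of WT and sih libraries of the same number from their genotype means correlated at 0.932, 0.884 and 0.852, above the bound of 0.1 set for pairing. Unlike numbers correlated between -0.730 and 0.136, and WT 2 with sih 3 (0.101) and WT 3 with sih 2 (0.136) also passed the bound. Each library correlated highest with its own number, and the numbers were taken to pair the libraries. This rests on the values, as no label explains the numbers. No label says that libraries came from separate clutches, so p-values reflect only the spread among these 6 libraries, which may be technical.

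Named members were those called, the 3 with the most reads in each role, those with genotypes not overlapping and a mean of at least 50, the 4 with the largest F for replicate number and the type IV pairs; of the matrix list, up to 4 called genes in each direction. Of the other members named, col1a2, col5a1, col5a3b, col11a1a, col15a1b, col27a1a, COL12A1, COL21A1 (1 of 2), the second col6a3, leprel4, lox, loxl3a, loxl5a, loxl5b, plod2, leprel2, COL14A1 (2 of 2), col10a1 and p4ha3 were chosen after their values were seen. edgeR 4.0.16 (quasi-likelihood) and DESeq2 1.42.0 served as alternative tests of the recovered reads, and the script was tested on simulated data. Symbols are those of the table; a current symbol was found for 69 of the 85 members. No sequence is shown.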

Additional observations from a re-analysis of the deposited data

How the results depend on the processing

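No member and no entry of the matrix list was called between genotypes in the fit without the replicate block under any of the alternatives tried for it (other scalings, pseudocount 0.1, no filter on low values beyond 1 read in any library, a filter of 1 CPM in 3 libraries, edgeR, DESeq2, each library left out). Of all genes, DESeq2 without the block called 48 and the other fits without it called 0. The counts below are from fits with the replicate number as a block. Members called higher and lower were 1 and 5 with the block alone, with TMM scaling and without the filter, 0 and 17 with library totals, 0 and 2 with pseudocount 0.1, 2 and 6 with the CPM filter, 3 and 6 with edgeR and 2 and 5 with DESeq2, which gave no adjusted p for 30 members. Entries of the matrix list called higher and lower were 3 and 7 with the block alone and with TMM, 0 and 33 with library totals, 1 and 2 with pseudocount 0.1, 2 and 7 without the filter, 5 and 10 with the CPM filter, 6 and 10 with edgeR and 8 and 5 with DESeq2. With a pair left out, up to 4 members were called higher and up to 5 lower, with col8a2 and SERPINH1 (2 of 2) among the lower ones each time. List entries called were up to 4 higher and up to 7 lower. All fits with a pair left out estimate the error of a gene from few libraries and lean on the spread of other genes. TMM scaling with the block called 632 of all genes higher and 473 lower, as the deposited scaling did. It left the log2 differences nearly unchanged, so it is no separate check of the scaling. Over the 8 fits with the block and all libraries, TMM among them, col8a2 and SERPINH1 (2 of 2) were called in each. col4a4, col6a2 and loxl1 were not called with pseudocount 0.1 (adjusted p = 0.0608, 0.0556 and 0.103), nor was PLOD3 (2 of 2), which was also lost with library totals (adjusted p up to 0.171). With library totals the log2 differences of col1a1a, col4a1, col4a2 and col4a5 turned to -0.0343, -0.152, -0.0668 and -0.0263 with and without the block, below 0 as the median of all genes was under that scaling (-0.18). With 1 library left out, in fits without the block, log2 differences changed sign for PLOD3 (2 of 2) (-0.35 to 1.11), col4a1 (-0.89 to 0.95), col4a2 (-0.30 to 0.43), col4a6 (-0.72 to 0.15) and lamb1a (-0.18 to 1.36). Such fits leave the replicate numbers unbalanced between the genotypes. With a pair left out in the fits with the block, PLOD3 (2 of 2) and lamb1a stayed higher and col4a6 stayed lower in sih. In the fits with the block col4a2 stood at -0.0225 without replicate 1 and col4a1 at -0.138 without replicate 3. Members called for the replicate number ranged from 34 (without replicate 1) to 61 when a replicate number was left out. The cause of the other changes was not tested. With 3 libraries a group and 1 read worth up to 1.43 normalised counts, the values of members with few reads are coarse.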

Other observations

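Some members had so few reads that no fold is given. lox, the founding lysyl oxidase, had 3, 5 and 3 reads in WT and 1, 0 and 0 in sih, the sih libraries all below the WT libraries, with an adjusted p = 0.13 in the paired limma fit. col10a1, a type X collagen gene, had 9, 1 and 2 reads in WT and 2, 0 and 0 in sih (adjusted p = 0.254). p4ha3, a prolyl hydroxylase subunit, had 2, 7 and 1 reads in WT and 1, 8 and 0 in sih, and both replicate 2 libraries held the most.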
